A study of Rattus norvegicus with 30 samples.

Results

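The comparison described here sets rat hepatocytes exposed to 10 mM sodium valproate for 48 h against hepatocytes given water for the same time. Its members are the 5 cultures of each kind, chosen by the treatment and time in their labels, and they make up 10 of the 30 samples measured. The cells were thawed primary hepatocytes of male Sprague Dawley rats, kept on collagen under a layer of Matrigel and dosed on culture day 3, with water as the vehicle in every group. The other 20 samples, 5 cultures each of water and 10 mM valproate at 24 h and of 0.5 mM valproate at 24 and 48 h, served for the tests of time and dose and for the common estimate of spread. How many donor animals were used and how wells lay on plates is not stated in these sources, and p-values therefore cover the spread from culture to culture, which may be technical. Hepatocytes from frozen stock in culture lack the blood flow and most other cells of the liver, which limits them as a model.

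Valproate, an anti-epileptic drug, is a small branched fatty acid. It inhibits histone deacetylases, the enzymes that remove acetyl groups from histones and thereby tend to keep genes silent, and as a fatty acid it is activated to a coenzyme A ester and broken down by the same mitochondrial pathways as dietary fat. In the liver it is known for fat accumulation and for disturbance of the urea cycle. PPARalpha, a nuclear receptor that binds fatty acids, switches on fat-burning genes in hepatocytes.

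RNA was read on 1-colour oligonucleotide arrays, 1 per culture, and the values are signals in arbitrary units. Changes are given as differences of mean log2(signal + 16), 10 mM minus water, with the standard error of the fit and n = 5 cultures per group. A gene was called at an adjusted p under 0.05 (limma, Benjamini-Hochberg over all probesets). Of 11604 genes tested, 3201 (27.6%) were called higher and 2582 (22.3%) lower at 48 h (49.8% in all), the background for every count of a list. Of these 704 rose (6.07% of genes tested) and 540 fell (4.65%) by at least 1 on the log2 scale, and 115 rose (0.991%) and 63 fell (0.543%) by at least 2. The 5 values of each group did not overlap in 23.9% of genes with valproate higher and in 18.4% with valproate lower. The median change over all genes was 0.03. Centring the arrays on ribosomal protein genes instead moved that median to 0.20 and the split to 4137 higher and 1619 lower, so the smaller falls depend on the scaling. Counts of a list under that centring are given below where the balance of the list turned or its falls dropped by much. Precision is limited by the number of arrays.

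A 10 mM culture stood apart. Among the 1010 genes that had risen by at least 1 at 24 h, the median difference from water at 48 h was 1.06, 1.11, 1.12 and 1.09 in cultures 1, 3, 4 and 5 of the 10 mM group and 0.91 in culture 2. Among the 752 genes that had fallen by at least 1 at 24 h it was -1.08, -1.14, -1.14 and -1.05 in those cultures and -0.76 in culture 2. Of the genes called higher at 48 h, culture 2 was the 10 mM culture nearest to water in 51.8%, and of the genes called lower in 54.2%. Its actin 3' to 5' control ratio, a measure of RNA integrity, was 1.28 on the log2 scale, the lowest of the 10 mM group (1.28 to 1.49), while the water cultures spanned 1.2 to 1.33. The part of RNA quality in this was not tested. Without culture 2, 3162 genes were called higher and 2503 lower, of which 3066 and 2428 were called the same way with it. No count of a list or symbol family given below, against water or between the doses, moved by more than 3 without it. Where a gene is given with a value, its value without culture 2 is added if it differs by over 0.25.

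**Figure D1:**
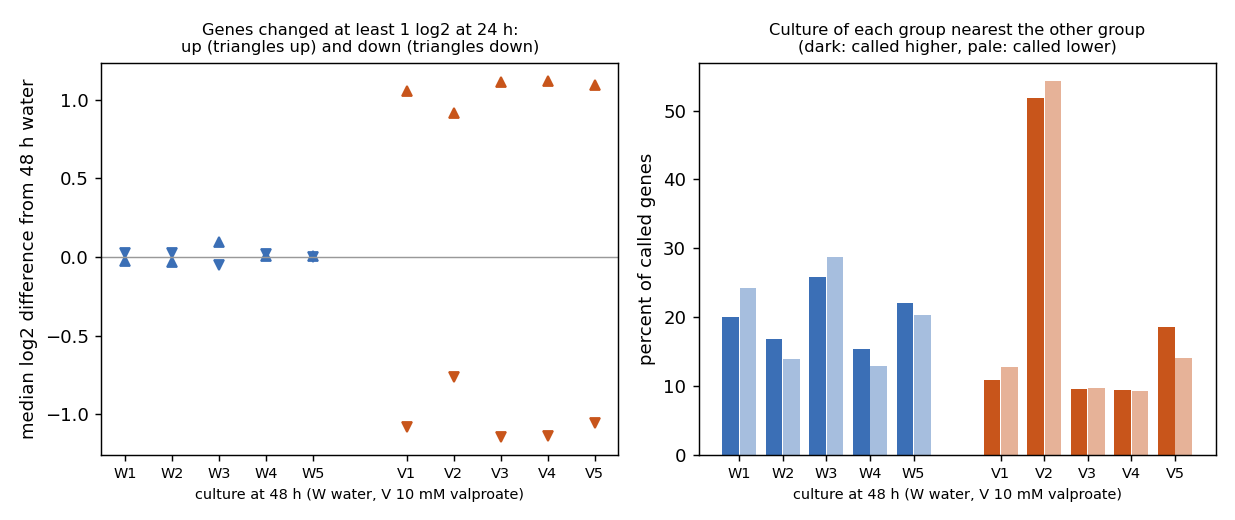
Left, median log2 difference of each 48 h culture from the 48 h water cultures (from the other 4 for a water culture) over genes that had risen (upward triangles, 1010 genes) or fallen (downward triangles, 752 genes) by at least 1 at 24 h. Right, the percent of genes called higher (dark) or lower (pale) in which a culture was the one of its group nearest to the other group; culture V2 was nearest in 51.8% and 54.2%, and no other 10 mM culture in more than 18.5%.

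The cells expressed hepatocyte genes. All 13 of the hepatocyte markers found on the array passed the filter on signal, and their summed signal was 472966.0 to 534431.0 in water and 407672.0 to 459080.0 with valproate. Of these 7 were called lower and 1 higher; with the ribosomal centring 2 higher and 3 lower. Albumin (Alb), the main plasma protein of hepatocytes, read 70766, 66908, 72659, 70437 and 75361 in water and 68214, 72256, 61135, 71188 and 74408 in the 10 mM cultures. These ranges overlap, and the change of -0.04 ± 0.08 (95% interval -0.20 to 0.13) was not called.

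The largest rise belonged to Acot1, an enzyme that splits long-chain acyl-CoA into free fatty acid and coenzyme A. Its signal was 291, 226, 164, 121 and 18.7 in the 5 water cultures and 21008, 15524, 20789, 20614 and 23861 in the 5 valproate cultures. The lowest valproate value lay far above the highest water value, and the change was 7.12 ± 0.33 (adjusted p = 3.7e-17). The mean in water lay below the level used as filter, as it did for 13 of the 29 genes (0.25%) that rose by at least 3, so the size of such a rise is uncertain on the low side. Of other rises named below this also held for Armcx2, Golm2, Naaa, Rasgrp2, Bhlhe41, Ucp2, Fbp2 and Snap91, and in the falls of C1qb, C1qc, Ccl2, Ccl20, Cd5l, Cdk6, Esm1 and Fcgr2b the valproate mean lay below that level. Probesets of related thioesterases can share signal; Acot2 rose by 1.25 ± 0.07 and Acot7 by 1.42 ± 0.15, while the acetyl-CoA thioesterase Acot12 fell (-0.79 ± 0.17). Of 10 thioesterases tested, 6 rose and 2 fell.

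Genes controlled by PPARalpha rose as a group. Of 26 tested, 18 were called higher and 3 lower, with a median of 0.64. Ehhadh, the bifunctional enzyme of peroxisomal fat oxidation, read 2822, 1899, 2586, 2439 and 2245 in water and 15261, 10633, 12408, 11180.0 and 16267 with valproate. The ranges did not overlap, and the change was 2.44 ± 0.12 (adjusted p = 1.4e-16). Pdk4, the kinase that shuts off pyruvate dehydrogenase when fat is burned, read 7435, 6449, 6181, 6592 and 5604 in water and 40761, 34209, 41169, 44033 and 42754 with valproate, a change of 2.65 ± 0.10. The lowest valproate value, in culture 2, lay well above all water values. The fatty acid hydroxylases Cyp4a1 (1.95 ± 0.08) and Cyp4a3 (1.43 ± 0.08), the lipase inhibitor Angptl4 (1.46 ± 0.07), the hormone Fgf21 (1.54 ± 0.12) and the uncoupling protein Ucp2 (2.53 ± 0.50) also rose. The exceptions were Fabp2, an intestinal-type fatty acid binding protein (-1.80 ± 0.13), the lipid droplet protein Cidec (-1.07 ± 0.10) and Vnn1 (-0.34 ± 0.07), which was not called with the ribosomal centring.

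Within fat oxidation itself the direction was mixed. Of 28 mitochondrial genes, 13 rose and 10 fell, and of 23 peroxisomal genes 9 rose and 7 fell. The acyl-CoA synthetase Acsl1 (1.22 ± 0.08), the carnitine transferases Cpt1a (0.89 ± 0.12), Crat (1.27 ± 0.13) and Crot (1.26 ± 0.09) and the trifunctional protein subunit Hadha (0.77 ± 0.08) were higher. The medium-chain synthetase Acsm1, which activates acids of the size of valproate to coenzyme A esters, read 37839, 35529, 30549, 34970.0 and 31735 in water and 8346, 17491, 5718, 5903 and 9004 with valproate. Culture 2 held the highest valproate value, still under all water values. The fall was -2.0 ± 0.16, and -2.26 without that culture. Glyat, which joins such esters to glycine, fell (-1.65 ± 0.12). Bbox1, the last enzyme of carnitine synthesis, (-1.53 ± 0.11) and the very long-chain dehydrogenase Acadvl (-0.55 ± 0.07) fell. Ketone body genes split too: Oxct1, which hepatocytes normally lack because it burns ketones, read 433 ± 59.0 in water and 1637 ± 318 with valproate (SD, n = 5; change 1.87 ± 0.18), and Bdh1, which makes hydroxybutyrate, fell (-0.97 ± 0.18).

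Fat and sterol synthesis fell. All 21 fatty acid synthesis genes tested were called, 3 higher and 18 lower, with a median of -0.68. Fasn, the fatty acid synthase, read 9853, 11747, 11329, 11758 and 11911 in water and 2107, 3545, 2032, 1813 and 2469.7 with valproate. No valproate value came near the water range, and the change was -2.27 ± 0.12 (adjusted p = 1.5e-15). Acly, which makes cytosolic acetyl-CoA, fell (-1.93 ± 0.11), the carboxylase Acaca (-1.44 ± 0.09), Thrsp (-1.88 ± 0.19) and the sterol-sensing regulator Srebf1 (-0.92 ± 0.10). The 3 that rose were the elongases Elovl2 (1.61 ± 0.11) and Elovl5 (1.20 ± 0.09), which lengthen polyunsaturated fatty acids, and the desaturase Scd2 (0.61 ± 0.14). Of 17 cholesterol synthesis genes 16 fell, among them Sqle (-1.08 ± 0.10) and Idi1 (-1.08 ± 0.09). Hsd17b7 alone was called higher (0.23 ± 0.08), and its other probeset was called lower.

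Genes of sterol uptake, esterification and export were mixed, with 5 of 20 higher and 7 lower, a balance that turned with the ribosomal centring (9 higher and 5 lower). Soat1, which stores cholesterol as esters, read 179.6, 76.2, 212, 151 and 28.8 in water and 3868, 3359, 3852, 4339 and 4599 with valproate, a rise of 5.00 ± 0.37. The groups were far apart, but the water mean lay below the filter level here too. The plasma esterifying enzyme Lcat (-1.47 ± 0.09), the carboxylesterase Ces1d (-2.03 ± 0.20) and the oxysterol receptor Nr1h3 (-1.99 ± 0.14) fell. Storage of triglyceride was mixed, with 8 of 30 genes higher and 11 lower, and with the ribosomal centring 10 higher and 7 lower. Mogat2, an acyltransferase of the gut, rose by 2.38 ± 0.43 and lipoprotein lipase, Lpl, by 2.27 ± 0.17. Plin2, which coats lipid droplets, was called at 0.21 ± 0.06, but its other probeset was called lower.

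**Figure D2:**
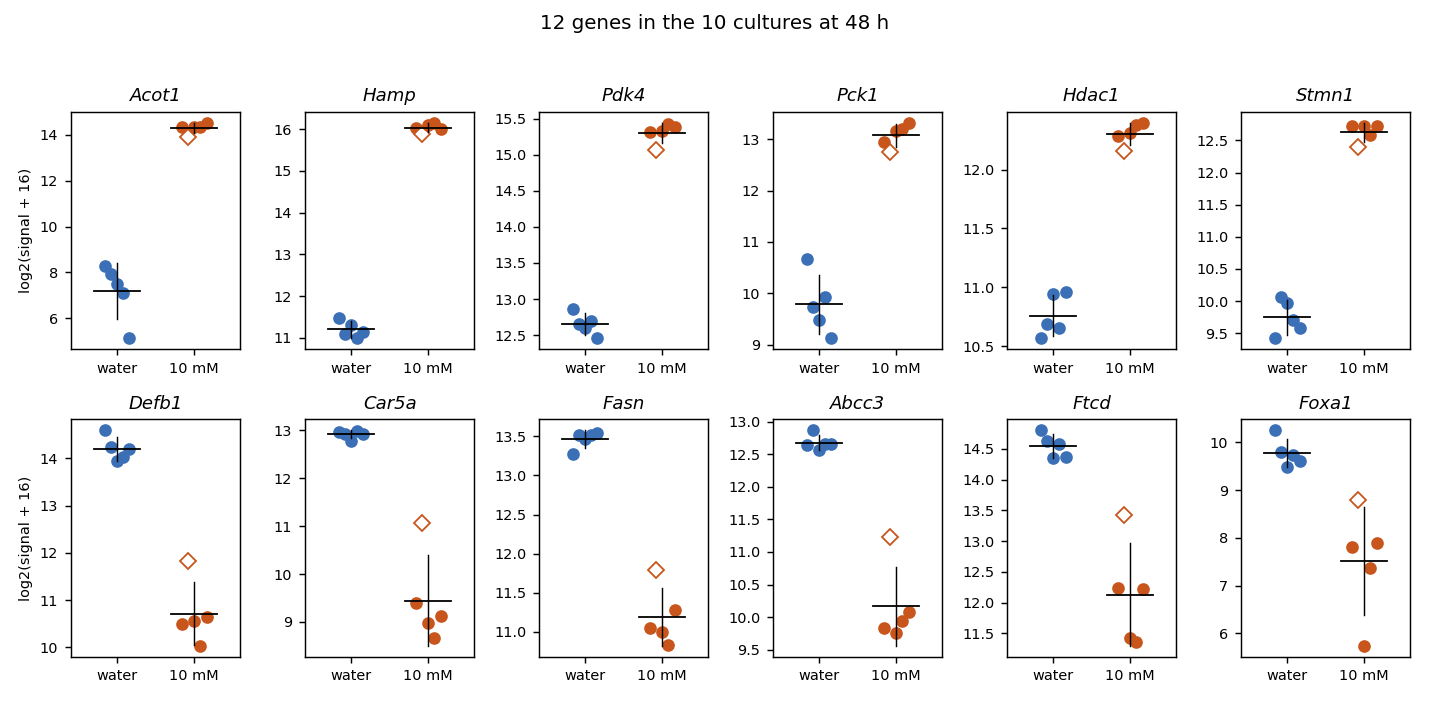
Log2(signal + 16) of 12 genes in each of the 5 water and 5 valproate (10 mM) cultures at 48 h, with the mean (horizontal line) and SD (vertical line). The open diamond is culture 2 of the valproate group, the valproate value nearest to water in every panel; the groups do not overlap in any panel.

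Bile acid genes fell on both the synthetic and the transport side. Of 17 genes of synthesis 11 fell and 2 rose, and of 18 transporters 11 fell and 1 rose. Cyp7a1, the enzyme that limits the making of bile acids from cholesterol, read 3248, 2691, 3223, 3082 and 3711 in water and 1112, 1939, 856, 512 and 1031 with valproate. The groups did not overlap, and the change was -1.66 ± 0.20. The conjugating enzymes Baat (-2.12 ± 0.17) and Slc27a5 (-2.18 ± 0.11) fell too. Abcc3, which pumps bile acids and conjugates back into blood, read 6407, 7464, 6039.7, 6431 and 6441 in water and 895, 2384, 845, 962 and 1062 with valproate. Culture 2 stood above the other valproate cultures and still under all water cultures. The change was -2.51 ± 0.17, and -2.78 without it. Falls were also called for Abcc2, the export pump at the canaliculus (-1.81 ± 0.13), the bile acid uptake carrier Slc10a1 (-1.66 ± 0.21) and the anion carriers Slco1a4 (-2.10 ± 0.16) and Slco1a1 (-1.84 ± 0.12), which are neighbours on the chromosome.

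Amino acid breakdown fell broadly. Of 40 genes 33 were lower and 3 higher, with a median of -0.65. Ftcd, which hands a group from histidine breakdown to folate, read 28560.0, 25377, 20815, 24411 and 21010.0 in water and 4791, 10977, 2724, 2607 and 4771 with valproate. The change was -2.41 ± 0.21, and -2.73 without culture 2, which held the highest valproate value. Bhmt, which remethylates homocysteine (-1.68 ± 0.28; -2.0 without culture 2), Chdh, which feeds it with betaine (-2.29 ± 0.13), and Fah, the last step of tyrosine breakdown (-1.54 ± 0.10), fell. Aass, the first step of lysine breakdown, went the other way, from 3601, 4779.5, 3635, 4435 and 4145 in water to 13152, 11761, 13564, 14198 and 14044 with valproate, a rise of 1.70 ± 0.09.

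Of 18 genes of the urea cycle and of ammonia handling, 9 fell and 4 rose. Otc, which makes citrulline (-1.29 ± 0.22), the carrier Slc25a15, which brings it ornithine (-1.40 ± 0.11), and Ass1, the next enzyme (-0.98 ± 0.07), fell. The 4 that rose were Arg2, Gls2, Oat and Asl, the cycle enzyme after Ass1, so the cycle was not lowered at every step. Cps1, the entry enzyme, was called lower (-0.27 ± 0.05), and with the ribosomal centring it stood at -0.10 and was not called. Car5a, the mitochondrial carbonic anhydrase that supplies bicarbonate for this cycle, read 8044, 7762, 7052, 8148 and 7822 in water and 653, 2132, 489, 388 and 539 with valproate. It was among the largest falls of all, at -3.48 ± 0.25, and at -3.89 without culture 2.

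For several proteins a form rose while a related form fell or, for Fbp1, was not called. In some pairs, such as the enolases, the form that rose is typical of other tissues. All pairs were chosen after their values were seen. Eno2, the neuronal enolase, read 468, 292, 340.4, 291 and 292 in water and 3684, 2543, 3392, 4437 and 3707 with valproate, a rise of 3.34 ± 0.17, while Eno1 changed by -0.45 ± 0.06. The heart-type lactate dehydrogenase subunit Ldhb rose by 2.73 ± 0.10 and the muscle-type Ldha changed by -0.27 ± 0.06. The liver pyruvate kinase Pklr (-1.97 ± 0.11), the liver phosphofructokinase Pfkl (-1.36 ± 0.13) and the liver regulator Pfkfb1 (-1.53 ± 0.09) fell, whereas the muscle form Pfkm rose by 0.50 ± 0.14 and the regulator Pfkfb3 by 1.42 ± 0.23. Among pyruvate dehydrogenase kinases Pdk4 rose while Pdk1 (-1.25 ± 0.11) and Pdk2 (-1.26 ± 0.11) fell. The muscle bisphosphatase Fbp2 rose by 2.43 ± 0.36 with Fbp1, not called, at 0.04 ± 0.06, brain glycogen phosphorylase Pygb by 1.05 ± 0.19 with the liver form Pygl at -0.31 ± 0.08, and arginase 2, Arg2, by 1.90 ± 0.19 with the liver form Arg1 at -0.60 ± 0.08. Among carbonic anhydrases Car3 rose by 2.82 ± 0.11 and the second mitochondrial form Car5b by 1.41 ± 0.10, against the fall of Car5a. Profilin 2, Pfn2, rose by 2.42 ± 0.11 and the general form Pfn1 fell (-0.97 ± 0.08). With the ribosomal centring Ldha and Pygl were not called. Whether the tissue forms as a class differ from other genes was not tested.

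Glucose output genes diverged. Pck1, which commits carbon to glucose, read 1604, 829.8, 694, 957 and 541 in water and 7919, 6927, 9181, 9349 and 10254 with valproate. The rise was 3.30 ± 0.20, with no overlap. The glucose 6-phosphate carrier Slc37a4 (-1.73 ± 0.10), the glucose carrier Slc2a2 (-1.16 ± 0.08) and the glucagon receptor Gcgr (-1.58 ± 0.16) fell. Over the list, 5 of 27 rose and 13 fell, and with the ribosomal centring there were 6 higher and 7 lower.

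Drug metabolism changed gene by gene. Of 25 constitutive cytochromes P450, 16 fell and 2 rose. Cyp2c11, the male-typical form of rat liver, read 31542, 30447, 27346, 31279 and 31521 in water and 6214, 11878, 5436, 4669.6 and 5993 with valproate, a change of -2.23 ± 0.15. Cyp2d2 (-2.04 ± 0.14) and Cyp2c12, the female-typical form (-2.73 ± 0.20; -3.04 without culture 2), fell as well. Cyp3a2, another male-typical enzyme, rose, from 2685, 2999, 2721, 3069 and 3439 in water to 10797, 8516, 11495, 10192 and 11970.0 with valproate (1.82 ± 0.09), as did Cyp2c13 (1.25 ± 0.09) and Cyp2b3 (1.46 ± 0.08). The drug-sensing receptors Nr1i3 (-1.16 ± 0.14) and Nr1i2 (-0.70 ± 0.07) fell. Members of the cytochrome and conjugating families are near copies and their probesets may share signal. Of 33 conjugating enzymes 20 fell, Gsta3 the furthest (-1.69 ± 0.11), and 7 rose, Sult1c3 the furthest (2.20 ± 0.15). Genes of the oxidative stress regulator Nrf2 were lower in 21 of 33 cases and higher in 4, with Gpx2 at -1.72 ± 0.11, heme oxygenase Hmox1 at -1.23 ± 0.14 and sulfiredoxin Srxn1 at 0.87 ± 0.07.

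Among the enzymes that valproate inhibits and their relatives, histone deacetylases and sirtuins, the list had 13 of 23 genes higher and 6 lower. Hdac1, a class I nuclear deacetylase, read 1500.5, 1634, 1947, 1592 and 1971 in water and 4964, 4555, 5049, 5322 and 5368 with valproate. All 5 valproate values exceeded all water values, and the change was 1.54 ± 0.25 (adjusted p = 4.5e-06). The tubulin deacetylase Hdac6 rose by 1.23 ± 0.26, and Hdac10 fell (-0.85 ± 0.23). Other chromatin enzymes rose in 16 of 37 cases and fell in 4. The methyltransferase Ezh2 (1.49 ± 0.23), the maintenance DNA methyltransferase Dnmt1 (1.03 ± 0.31), its partner Uhrf1 (1.23 ± 0.24) and the methylcytosine oxidase Tet2 (0.95 ± 0.11) were among those that rose. The linker histone H1f10 rose by 1.62 ± 0.32.

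Genes often reported to answer deacetylase inhibitors rose in 13 of 27 cases and fell in 5. The list was chosen with earlier results of these data known, so the count is no independent test of such reports. Its members Nefm, Tubb2b and Tubb3 are counted again in the neuronal or microtubule lists below. Crip1, a small zinc-binding protein, read 54.4, 50.0, 61.8, 56.1 and 56.4 in water and 5934, 4349.7, 6073, 5478 and 6790.1 with valproate, a rise of 6.31 ± 0.22; its water mean too lay below the filter level. Cd24, a surface protein of immature epithelia, read 174, 198, 71.9, 143 and 193 and 4436, 3117, 4580.4, 4733 and 4739, a rise of 4.71 ± 0.31 from a water mean just under that level. Cdkn1a, a cell cycle inhibitor, was not called, at 0.12 ± 0.16 (95% interval -0.21 to 0.45), whereas its relative Cdkn1c rose by 2.13 ± 0.25.

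Neuronal genes gave 10 called higher and 1 lower, the tubulin Tubb4a, of 27 tested, and 16 not called. Another 17 of the 44 on the array, among them Nefh, Gap43 and Map2, did not pass the filter on signal. That filter used all 30 arrays, so a dim gene could pass because it rose. Set against all 44 on the array, the 10 rises lie near the share over all genes with no filter, 3289 of 14217. A response of neuronal genes as a class was not tested. The neurofilament Nefm read 240.2, 158, 185, 224 and 99.6 in water and 2742, 2137, 2845, 3039 and 2474 with valproate, a rise of 3.80 ± 0.23. The ubiquitin hydrolase Uchl1 (3.12 ± 0.46), the coat protein Snap91 (2.39 ± 0.40) and the neuronal tubulin Tubb3 (2.24 ± 0.17) rose, while the synaptic vesicle genes Syp (-0.23 ± 0.21, 95% interval -0.66 to 0.19) and Syt1 (-0.26 ± 0.22, interval -0.70 to 0.18) were not called. Microtubule genes as a list rose in 14 of 28 and fell in 5, among them the tubulins Tubb4a and Tubb4b. Tubb2b, a tubulin of the developing brain, rose by 4.35 ± 0.42. Stmn1, which takes microtubules apart, read 668, 1048, 992, 814 and 746 in water and 6762, 5349, 6781, 6129 and 6732 with valproate (2.89 ± 0.12). In the actin list 6 of 37 genes were higher and 15 lower. Acta1 (-2.06 ± 0.19; -2.32 without culture 2) and vimentin, Vim (-1.74 ± 0.10), fell and Pdlim7 rose (2.59 ± 0.41).

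Cell cycle genes rose in 28 of 50 cases and fell in 4, with a median of 0.58. Of the 61 on the array 11 did not pass the filter, among them Mki67, Plk1, Cdk1 and Ccna2, which mark dividing cells. Cyclin E2, Ccne2, which drives entry into S phase, read 479.7, 468, 574, 476 and 401 in water and 4801, 2453, 3668, 3593 and 3222 with valproate, a rise of 2.82 ± 0.14. Cyclin E1, Ccne1 (2.51 ± 0.37), the replication helicase subunits Mcm4 (2.25 ± 0.23) and Mcm6 (1.71 ± 0.22) and the brake Rb1 (1.69 ± 0.20) also rose. Top2a, which acts late in the cycle, was not called (0.70 ± 0.40, 95% interval -0.12 to 1.53), and thymidine kinase Tk1 (-1.19 ± 0.09), Cdk4 (-0.64 ± 0.10) and Cdk6 (-1.09 ± 0.29) fell. Among p53 and DNA damage genes 12 of 23 rose, including Mdm2 (1.03 ± 0.07) and Ccng2 (1.22 ± 0.13), and 4 fell.

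Epithelial genes moved down in part, and hepatocyte transcription factors were mixed, with 6 of 27 higher, 10 lower and a median of 0.03. For these factors and the clock genes below, counts with the ribosomal centring are not given. Keratins, junction and biliary genes were lower in 18 of 30 and higher in 4, with Cldn7 at -2.52 ± 0.33, Epcam at -1.03 ± 0.07, E-cadherin Cdh1 at -0.77 ± 0.09 and keratin 8, Krt8, at -0.72 ± 0.08. Foxa1, a pioneer factor that opens liver chromatin, read 1206, 875, 698, 834 and 769 in water and 207, 425, 37.2, 148 and 222 with valproate. The groups did not overlap, and the fall was -2.26 ± 0.31 (-2.58 without culture 2). Hnf4a, a central factor of hepatocyte identity, was called at 0.42 ± 0.10 by its brightest probeset, while its other 2 tested probesets were called lower, so its direction is not settled. Of 19 circadian clock genes tested, 9 rose and 3 fell, with a median of 0.25. The clock repressor Bhlhe41 was among the rises (2.97 ± 0.39), and its relative Bhlhe40 (-2.37 ± 0.16) and Npas2 (-1.38 ± 0.17) were among the falls.

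Secreted proteins separated into a few that rose and many that fell. Coagulation genes were lower in 17 of 24 and higher in 6. All 3 fibrinogen chains rose, Fga by 0.85 ± 0.06, Fgb by 0.51 ± 0.07 and Fgg by 0.35 ± 0.06; the mean over the probesets of Fgb gave -0.17. Hrg (-1.88 ± 0.12), coagulation factor X, F10, (-1.29 ± 0.10) and plasminogen, Plg (-1.23 ± 0.10), fell. Carriers and apolipoproteins rose in 9 of 33 and fell in 16, and with the ribosomal centring there were 9 higher and 11 lower. Those that rose included Serpina6, which binds corticosteroids (2.91 ± 0.14), and Igfbp2 (2.97 ± 0.35), and those that fell included Apoa5 (-1.87 ± 0.10). The receptors Ghr, for growth hormone (-1.41 ± 0.08), and Asgr2, for desialylated glycoproteins (-2.16 ± 0.14), fell as well. Acute phase proteins gave 18 lower and 5 higher of 29, and with the ribosomal centring 5 higher and 11 lower.

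Hamp encodes hepcidin, the hormone that blocks iron export. Its signal was 2844, 2168, 2527, 2016 and 2244 in water and 66740.0, 60719, 70006, 72991 and 65913 with valproate. The 5 valproate values lay close together and far above water, and the change was 4.83 ± 0.11 (adjusted p = 1.3e-25). Hepcidin is driven by bone morphogenetic proteins, and other targets of that pathway, Id1 (2.72 ± 0.15) and Id3 (1.75 ± 0.15), rose with it, as did the ligand Bmp6 (1.29 ± 0.18), normally made by endothelial cells. The coreceptor Hjv (-1.27 ± 0.10), the iron sensors Hfe (-1.01 ± 0.15) and Tfr2 (-0.69 ± 0.15) and the iron uptake receptor Tfrc (-0.65 ± 0.10) fell. Over the list 12 of 32 rose and 10 fell; quantile normalization gave 10 higher and 11 lower.

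Complement genes fell in 19 of 29 cases and rose in 3. The hepatocyte products Mbl2 (-1.56 ± 0.08) and C9 (-1.43 ± 0.10) fell. So did C1qc (-2.14 ± 0.26), C1qb (-1.95 ± 0.41) and C1qa (-0.90 ± 0.19), which macrophages make. Markers of Kupffer cells, the macrophages of the liver, were lower in 8 of 12 tested, and none was called higher. Fcgr2b, an antibody receptor, read 665, 753, 516, 794 and 661 in water and 112, 284, 13.3, 25.8 and 122 with valproate (-2.90 ± 0.35; -3.33 without culture 2), and Cd5l fell (-1.44 ± 0.17). The summed signal of the list was 12715.0 to 13760.0 in water and 8303.0 to 8956.0 with valproate, and its markers Cd163, Adgre1, Fcgr1a, Itgam, Ptprc and Laptm5 did not pass the filter on signal. In such mixed samples fewer cells of a type and less RNA per cell cannot be told apart. Stellate cell and fibroblast markers were lower in 5 of 15 and higher in 1, with a summed signal of 24271.0 to 36106.0 in water and 12944.0 to 19204.0 with valproate. Of 5 endothelial markers 1 was higher and none lower, and none of 4 lymphocyte markers was called. Bile duct markers gave 1 higher and 3 lower of 6. The part of these cells in the complement and cytoskeletal changes was not tested.

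Inflammatory and stress genes did not move as blocks. Of 34 cytokine pathway genes 8 rose and 10 fell, and with the ribosomal centring the balance turned (9 higher and 5 lower). The chemokines Ccl2 (-2.33 ± 0.34; -2.76 without culture 2) and Ccl20 (-1.57 ± 0.32) fell, and the cytokines Il18 (1.62 ± 0.19) and Il33 (1.69 ± 0.16) and the chemokine Cxcl10 (1.53 ± 0.17) rose. Of the amino acid and integrated stress genes 9 of 32 rose, with Ddit3 at 1.51 ± 0.09 and Atf3 at 1.31 ± 0.09, and 12 fell, with Atf5 at -1.30 ± 0.12. This balance turned too with the ribosomal centring (14 higher and 8 lower) and was 11 higher and 10 lower after quantile normalization. The small heat shock protein Hspb1 rose by 1.81 ± 0.08 and Hspa1a by 1.62 ± 0.11, and the related Cryab fell (-1.90 ± 0.11). Bcl2a1, which protects from apoptosis, rose by 2.67 ± 0.33 and the protease Casp6 by 1.48 ± 0.14. Lysosomal genes rose in 22 of 46 and fell in 9, led by the acid amidase Naaa (3.99 ± 0.32); with the ribosomal centring there were 27 higher and 2 lower. Carriers of the inner mitochondrial membrane rose in 15 of 33, led after Ucp2 by the nucleotide carrier Slc25a36 (2.21 ± 0.15), and fell in 9. Ribosomal protein genes were lower in 24 of 41 and higher in 0, with a median of -0.18, whereas after quantile normalization 4 were higher and 5 lower, with a median of 0.00.

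**Figure D3:**
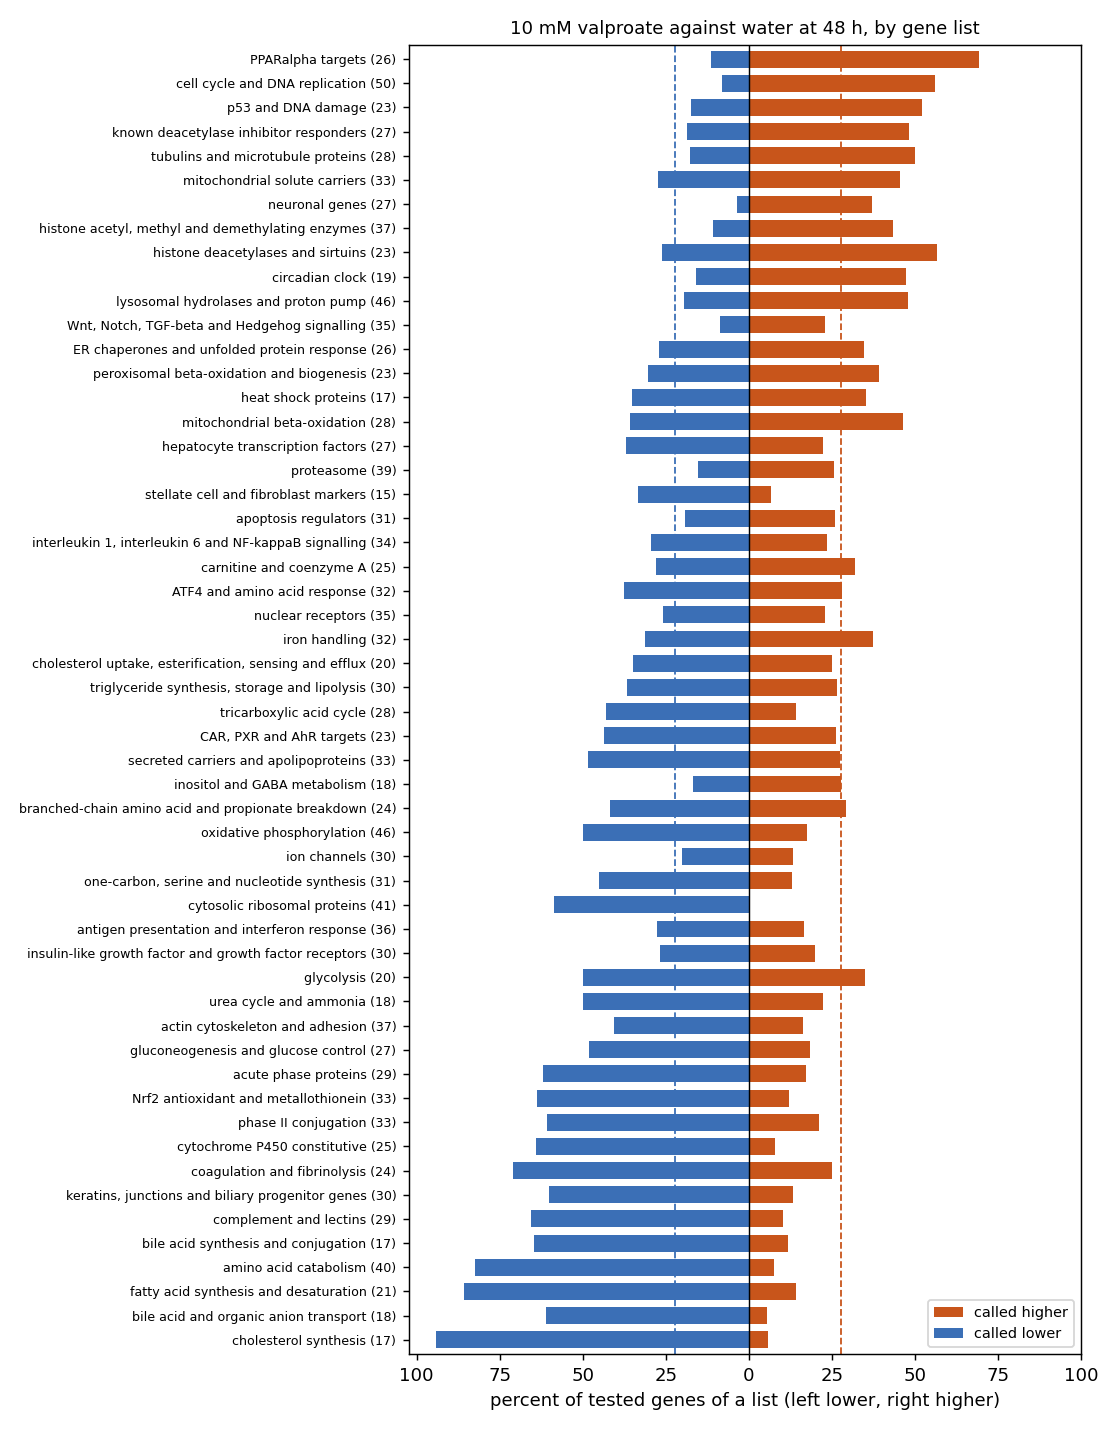
Percent of the tested genes of each list called higher (orange, right) or lower (blue, left) with 10 mM valproate at 48 h, for lists with at least 15 tested genes (number in brackets), ordered by median change. Dashed lines mark the shares over all genes, 27.6% and 22.3%; cholesterol synthesis lies at the lower end with 16 of 17 genes lower and PPARalpha targets at the upper end with 18 of 26 higher.

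Grouped by the stem of the gene symbol, 52 families had at least 20 tested members. Nucleoporins, the proteins of the nuclear pore, were higher in 12 of 22 and lower in 1, centrosomal Cep genes higher in 14 of 28 and lower in 3, kinesins (Kif) higher in 10 of 21 and lower in 2, and general transcription factors (Gtf) higher in 12 of 20 and lower in 4. Mitochondrial ribosomal proteins of the large subunit (Mrpl) were lower in 24 of 46 and higher in 9 (11 and 11 with the ribosomal centring), cytochromes P450 lower in 24 of 52 and higher in 10, and collagens lower in 6 of 23 with none higher. These families were read after their counts were seen.

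Other large changes belong to no list. The 15 largest rises by the naming rule also held Armcx2 (5.21 ± 0.45), the Golgi protein Golm2 (4.12 ± 0.47), the glutaminyl cyclase Qpct (3.85 ± 0.24), Ndrg4 (3.69 ± 0.35), the hydrolase Abhd3 (3.55 ± 0.18), the exchange factor Rasgrp2 (3.46 ± 0.34) and the thymosin Tmsb15b2 (3.46 ± 0.15). Among the largest falls was Defb1, an antimicrobial peptide, which read 24686, 19187, 15652, 16706 and 18712 in water and 1421, 3595, 1492, 1028 and 1594 with valproate (-3.49 ± 0.20; -3.76 without culture 2). It was followed by Asb5 (-3.35 ± 0.24), Tsx (-3.26 ± 0.19), Acyp2 (-2.95 ± 0.22), Mab21l3 (-2.90 ± 0.33), the peroxisomal oxidase Hao2 (-2.86 ± 0.17), Esm1 (-2.85 ± 0.40), Glyatl2 (-2.84 ± 0.18), the ubiquitin-like Ubd (-2.69 ± 0.16), the hyaluronidase Cemip (-2.68 ± 0.19), Akr1c1 (-2.65 ± 0.15) and Gpnmb (-2.61 ± 0.16). In each of these genes the 2 groups did not overlap. Without culture 2 the falls were -3.73 for Asb5, -3.54 for Tsx, -3.21 for Acyp2, -3.32 for Mab21l3, -3.11 for Hao2, -3.42 for Esm1, -3.13 for Glyatl2 and -2.95 for Ubd.

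The direction of change differed with the brightness of a gene. Genes were split into 10 equal classes by their signal in the 24 h water cultures, with no filter on low signal. Those cultures do not enter the change at 48 h but do enter the common spread behind the calls. In the dimmest class 10.6% were called higher and 1.34% lower, and 56 genes rose by at least 2 while none fell so far. In the brightest class 17.9% were higher and 48.5% lower, with no rise and 16 falls of that size. The share called higher was largest in class 7, at 34.0%, where 22.2% were lower. The part of array background and saturation in this pattern was not tested.

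**Figure D4:**
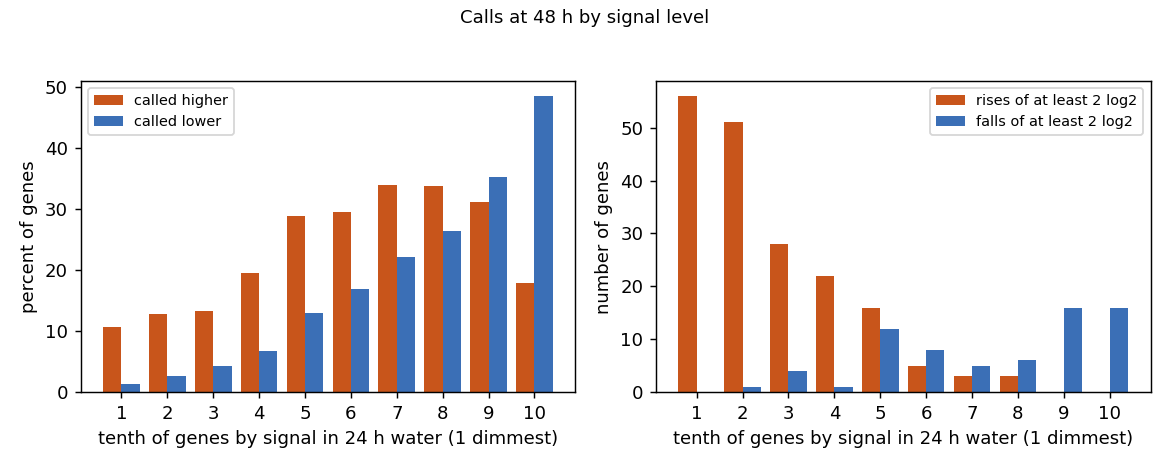
Genes in 10 equal classes by signal in 24 h water (1 dimmest, 10 brightest), with the percent called higher or lower at 48 h (left) and the number that rose or fell by at least 2 on the log2 scale (right). Rises of that size number 56 in class 1 and 0 in classes 9 and 10, while the share called lower climbs from 1.34% to 48.5%.

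Promoter sequence differed between genes that fell far and genes that rose. RefSeq promoters of build GRCr8, 250 bases before to 50 after the start, were found for 9666 tested genes. The dinucleotide CG is rare in mammalian DNA except in the promoters called CpG islands, which many widely used genes have. A ratio of observed to expected CG of at least 0.6 was found in 69.7% of the promoters of all tested genes, 78.9% of those of genes called higher, 65.2% of genes called lower and 66.5% of genes not called. It was found in 38.6% of the 425 genes that fell by at least 1, in 15.9% of the 44 that fell by at least 2 and in 59.8% of the 92 that rose by at least 2. Within the brightest of 3 equal classes of genes, 54.8% of those with a ratio under 0.6 were lower against 34.1% of those at or above it, and in the dimmest class 30.5% of genes with a high ratio and 15.2% with a low ratio were higher. The letters TATAAA, on either strand, occurred in 29.5% of promoters of genes that fell by at least 2 and in 6.52% of those that rose by at least 2. They occurred in 7.55% of all tested genes and in 14.3% of all promoters in the table. On the gene's strand, 20 to 40 bases before the start, they occurred in 4 of the 44 falls of at least 2. There they occurred in 0 of the 92 such rises and in 142 of the 9666 genes. CCAAT, on either strand, was present in 51.1% of promoters of genes that rose by at least 2 and in 37.9% of all tested. A match is a description and not a site.

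The 120 bases before the start are printed for the 3 named falls with the fewest CG, the 3 named rises with the most, and Hamp, the named rise with the fewest. They were picked by their CG count, so they show its extremes and not typical promoters. Capitals mark each CG. Glyatl2 lies at chr1:219232034-219232153, plus strand, Cyp2c12 at chr1:248677035-248677154, minus strand, Ubd at chr20:1392686-1392805, minus strand, Cd24 at chr20:48656357-48656476, plus strand, Golm2 at chr3:129280618-129280737, plus strand, Ndrg4 at chr19:9392973-9393092, minus strand and Hamp at chr1:95300272-95300391, minus strand, all in GRCr8 and upstream of the first exon.
Glyatl2: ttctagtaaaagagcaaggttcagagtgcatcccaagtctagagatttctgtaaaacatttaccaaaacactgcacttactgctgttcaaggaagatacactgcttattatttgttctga
Cyp2c12: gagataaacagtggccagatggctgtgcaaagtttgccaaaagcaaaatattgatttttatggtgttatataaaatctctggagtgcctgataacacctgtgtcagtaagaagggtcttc
Ubd: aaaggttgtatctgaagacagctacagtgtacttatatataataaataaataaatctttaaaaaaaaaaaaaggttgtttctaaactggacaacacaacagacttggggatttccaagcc
Cd24: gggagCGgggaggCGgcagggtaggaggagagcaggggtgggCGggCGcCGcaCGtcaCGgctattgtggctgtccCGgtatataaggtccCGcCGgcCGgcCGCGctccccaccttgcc
Golm2: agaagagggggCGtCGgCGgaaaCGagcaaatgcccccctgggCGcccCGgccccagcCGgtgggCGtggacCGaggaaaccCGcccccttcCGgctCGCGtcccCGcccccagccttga
Ndrg4: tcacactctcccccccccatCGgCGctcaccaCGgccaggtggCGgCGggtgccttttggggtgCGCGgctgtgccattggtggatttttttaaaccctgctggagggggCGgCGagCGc
Hamp: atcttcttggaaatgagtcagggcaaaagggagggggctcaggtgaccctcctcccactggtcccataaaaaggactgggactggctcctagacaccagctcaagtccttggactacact
The stretches of Glyatl2, Cyp2c12, Ubd and Hamp hold no CG, and those of Cd24, Golm2 and Ndrg4 hold 13, 14 and 10. Of the 14 named rises with a RefSeq promoter 8 had a ratio of at least 0.6, and of the 12 named falls 1 had.

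Time was tested as the difference between the 10 mM effect at 48 h and at 24 h, each against its own water. It was called for 1489 of 11604 genes (12.8%), 769 higher (6.63%) and 720 lower (6.2%) at 48 h. With the ribosomal centring 847 of 1099 called genes were higher. A move of the water cultures between the times enters this difference too, and its part was not tested. The actin ratio, on the log2 scale, was 2.76 in culture 3 of water at 24 h. Without the 3 arrays of the series above 2, the difference was called for 1702 genes, 852 higher and 850 lower. At 24 h 56.1% of genes were called, 31.1% higher and 25% lower. Of the 5783 genes called at 48 h, 4623 were called in the same direction at 24 h, 71 in the opposite direction and 1089 not at all, and of these last 207 had a called difference. Where both the 48 h change and the difference were called, 428 effects were larger at 48 h or had turned in sign, and 628 were smaller.

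Effects that were higher at 48 h than at 24 h included those on drug-metabolizing genes. Cyp3a2 changed by 0.12 at 24 h and 1.82 at 48 h, a difference of 1.70 ± 0.13 (adjusted p = 8.8e-11). Cyp2c13 went from -0.18 to 1.25 (1.43 ± 0.12), and the glutathione transferase Gstp3 from 0.55 to 3.03 (2.48 ± 0.38). Gstp3 read 217, 81.4, 119, 291 and 94.7 in water and 1574, 943, 1206, 1501 and 1329.7 with valproate at 48 h, and its water mean lay below the filter level. The effect was also larger at 48 h for Car3 (1.98 ± 0.15), Serpina6 (1.90 ± 0.19), Acot1 (1.70 ± 0.47), Crip1 (1.41 ± 0.31) and Ehhadh (1.04 ± 0.17).

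A second set had fallen at 24 h and stood higher at 48 h. Fabp1, the liver fatty acid binding protein, was -1.34 at 24 h and 0.61 at 48 h, where it read 19180.0, 18172, 18529, 17537 and 19037 in water and 33466, 29273, 25405, 22520.0 and 32377 with valproate. The difference of 1.96 ± 0.17 (adjusted p = 1.0e-09) turned its sign, and the estrogen sulfotransferase Sult1e1 turned likewise, from -1.39 to 0.80 (2.20 ± 0.25). Cyp7a1 stood at -3.60 at 24 h and -1.66 at 48 h (1.95 ± 0.29), Baat at -3.45 and -2.12 (1.32 ± 0.23), Tsku at -2.71 and -0.73 (1.98 ± 0.14), and Tmed1 at -3.75 and -1.79 (1.97 ± 0.44), so that these were less lowered at 48 h. Arg1 (0.85 ± 0.12), Acadvl (0.86 ± 0.10), Hjv (0.98 ± 0.13) and Nr1h3 (1.11 ± 0.20) belonged here too. The brightest probeset of Hnf4a did as well (1.21 ± 0.14).

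The opposite course, with lower values at 48 h, was taken by Tsx, at -1.35 and -3.26 (-1.90 ± 0.27; -2.19 without culture 2), by Asgr2 at -0.96 and -2.16 (-1.19 ± 0.19), by Epcam (-0.80 ± 0.10) and by the chemokines Ccl2 (-1.70 ± 0.49; -2.14 without culture 2) and Ccl20 (-1.66 ± 0.45). Sox4 went from 0.80 to -0.62 (-1.43 ± 0.21) by its brightest probeset. The early stress gene Atf3 (2.35 and 1.31; -1.04 ± 0.13) was less raised at 48 h.

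**Figure D5:**
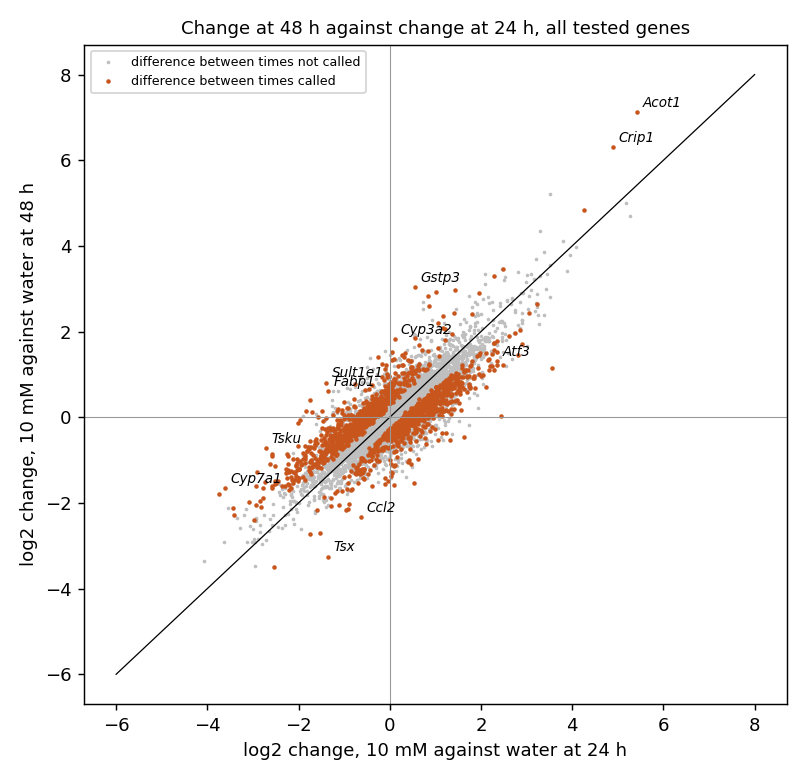
Log2 change of 10 mM valproate against water at 24 h (horizontal) and at 48 h (vertical) for 11604 genes, each time against its own water cultures. Orange points are the 1489 genes whose change differed between the times; the diagonal marks equal change, with Gstp3 and Cyp3a2 above it and Tsx and Ccl2 below.

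Dose was tested directly, 10 mM against 0.5 mM at 48 h. Of 11604 genes 3479 (30.0%) were higher and 2761 (23.8%) lower at 10 mM. RNA integrity differed here: the actin ratio, on the log2 scale, was 1.05, 1.32, 1.74, 2.23 and 2.77 in the 0.5 mM cultures and 1.28 to 1.49 at 10 mM. Without the arrays above 2, which are 2 of these and 1 of water at 24 h, 3479 genes were higher and 2588 lower between the doses. Of the 5783 genes that differed between 10 mM and water, 4535 also differed between the doses in the same direction and 80 in the opposite one. Both comparisons use the same 10 mM cultures, so part of this agreement follows from the design. Acot1 read 230.2 ± 50.4 at 0.5 mM (mean and SD, n = 5) against 20359 ± 3013 at 10 mM, a difference of 6.38 ± 0.33. Crip1 (6.22 ± 0.22), Hamp (4.86 ± 0.11) and Cd24 (4.24 ± 0.31) were higher at 10 mM than at 0.5 mM as well.

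Some PPARalpha targets and fat oxidation genes differed little between the doses. Ehhadh read 2398 ± 349.6 in water, 11337 ± 1796 at 0.5 mM and 13150.0 ± 2497 at 10 mM. The difference between the doses was 0.21 ± 0.12 (95% interval -0.04 to 0.45, adjusted p = 0.16). For Hadha it was -0.10 ± 0.08 (-0.27 to 0.06), not called, and for Cyp4a1 0.36 ± 0.08 and Acsl1 0.26 ± 0.08, both called. Cyp3a2 showed the same pattern, with 2983 ± 305 in water, 9243 ± 1217 at 0.5 mM and 10594 ± 1344 at 10 mM (0.20 ± 0.09, interval 0.01 to 0.38, adjusted p = 0.073). After quantile normalization the differences of Ehhadh (0.31, adjusted p = 0.048) and Cyp3a2 (0.29, adjusted p = 0.0081) were called, and with the mean over its probesets that of Acsl1 was not. Without culture 2 the difference of Cyp3a2 was 0.27 and was called (adjusted p = 0.01, limma). Other members of the list were far apart: Pdk4 differed by 2.85 ± 0.10 and Fgf21, which read 8782 ± 1162 in water and 4378 ± 921 at 0.5 mM, by 2.55 ± 0.12. Over the PPARalpha list 14 of 26 were higher and 5 lower at 10 mM than at 0.5 mM, and over mitochondrial fat oxidation 5 of 28 were higher and 16 lower. Slc10a1 (-2.73 ± 0.21) and Cyp7a1 (-3.17 ± 0.20) were lower at 10 mM than at 0.5 mM. Slc10a1 read 8278 ± 1664 in water and 17519 ± 3622 at 0.5 mM, and Cyp7a1 3191 ± 366 and 9223 ± 1981.

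RNA integrity differed slightly between the groups. The ratio of 3' to 5' signal of the actin control probesets was, on the log2 scale, 1.41 ± 0.08 with valproate and 1.23 ± 0.06 in water (SD, n = 5 cultures each; exact two-sided permutation test, p = 0.0159, where 0.00794 is the smallest p possible). For GAPDH it was 0.13 ± 0.02 and 0.11 ± 0.03 (exact permutation p = 0.278). With the actin ratio as a covariate 3344 genes were called higher and 2816 lower. Of 1733 called genes with at least 2 tested probesets, 670 had all of them called in the same direction and 54 had a probeset called in the opposite one.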

How the data were processed

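Per the labels, 30 cultures were measured on 1 array each, and per the submitters' processing notes the authors used MAS5, with no version or settings named. The deposited values are linear intensity (signal) per probeset, scaled so that the trimmed mean lay between 1500.5 and 1500.7 on all arrays. Here 16 was added and log2 taken, and probesets under the 30th percentile of mean log2 value (7.39) were left out, which kept 21729. A single model with 6 group means was fitted with limma 3.58.1 in R 4.3.3 (lmFit, eBayes with a trend, 24 residual degrees of freedom), two-sided, with Benjamini-Hochberg adjustment over all probesets. A gene stands for its probeset of highest mean over the 30 arrays. Genes named by rule were the 15 largest rises and falls without overlap between groups. The rule also named up to 5 called members a direction from each list, and time had a like rule. Dose had no rule of its own, and genes that differed little between the doses were put together by those values. Others were named after their values were seen. Against these rules, some genes and time differences whose calls rested on single arrays were left out after this was seen. The members and the gene lists were chosen with earlier results of these data known. Of the 31099 probesets, 20826 had 1 gene symbol, 436 several and 9780 none in the platform annotation; only the first kind was named. Promoters were taken from RefSeq. The fit was tested on simulated data. Running numbers in the titles did not pair the cultures (correlations -0.02 to 0.05). Alternatives covered the pseudocount, scaling, filter, model, probeset rule, RNA quality, a block and leaving out each array. Other cultures were used for time, dose, the common spread, the filter, the choice of probeset, the classes by signal and the genes that placed single cultures.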

Additional observations from a re-analysis of the deposited data

Results flagged for a closer look

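The effect of 10 mM valproate differed between 48 h and 24 h for 79 of the genes named above with a value. A limma test of the difference itself gave these calls. Values are the 48 h effect minus the 24 h effect on the log2 scale. The 48 h effect was more positive and larger in size for Gstp3 (2.48), Car3 (1.98), Serpina6 (1.90), Acot1 (1.70), Cyp3a2 (1.70), Igfbp2 (1.55), Cyp2c13 (1.43), Crip1 (1.41), Cyp2b3 (1.20), Sult1c3 (1.14), Aass (1.06), Ehhadh (1.04), Pck1 (1.01) and Tmsb15b2 (0.97). This was also so for Fgf21 (0.70), Hspb1 (0.61), Cyp4a1 (0.59), Hamp (0.56), Fga (0.49), Mdm2 (0.48), Hadha (0.47), Fgb (0.39), Acot2 (0.39), Srxn1 (0.35), Cyp4a3 (0.35) and Acsl1 (0.35). It was more positive and smaller in size, or no longer called, for Tsku (1.98), Tmed1 (1.97), Cyp7a1 (1.95), Baat (1.32), Chdh (1.11), Nr1h3 (1.11), Hjv (0.98), Atf5 (0.98), Bbox1 (0.95), Glyat (0.93), Acadvl (0.86), Arg1 (0.85), Slco1a4 (0.72) and Mbl2 (0.67). This was also so for Nr1i3 (0.61), Acaca (0.60), Pfkfb1 (0.60), Nr1i2 (0.54), Gsta3 (0.52), Slc25a15 (0.51), Vnn1 (0.45), Slc2a2 (0.38) and Fbp1 (0.32). The 48 h effect was more negative and larger in size for Tsx (-1.90), Ccl2 (-1.70), Ccl20 (-1.66), Cdk6 (-1.55), Asgr2 (-1.19), Ubd (-1.16), Cyp2c12 (-0.98), Defb1 (-0.95), Cyp2d2 (-0.93), C9 (-0.86), Epcam (-0.80), Slc37a4 (-0.68), Hrg (-0.60) and Slc27a5 (-0.59). This was also so for Plg (-0.58), Pdk1 (-0.53), Tk1 (-0.45), Apoa5 (-0.44) and Ghr (-0.40). It was more negative and smaller in size for Uhrf1 (-1.13), Atf3 (-1.04), Pfn2 (-0.62), Pdk4 (-0.59), Ccng2 (-0.56) and Ddit3 (-0.48). The direction turned between the times for Fabp1 (1.96) and Sult1e1 (2.20). The brightest probeset also turned its direction, though the mean over the probesets was called lower at 48 h for Hsd17b7 and Hnf4a and not called for Sox4, in Sox4 (-1.43), Hsd17b7 (0.68) and Hnf4a (1.21). Leaving out single arrays in turn ended the call, in at least 1 of 20 fits, for Acsl1, Apoa5, Ccng2, Cyp4a3, Defb1, Ghr, Gsta3, Hrg, Igfbp2, Nr1i3, Slc25a15, Slc2a2, Slco1a4, Srxn1 and Uhrf1. Without culture 2 of the 10 mM group at 48 h the difference was -2.14 for Ccl2, -1.28 for Cyp2c12, -1.23 for Defb1, -2.19 for Tsx and -1.42 for Ubd. Centring on ribosomal protein genes ended the call for Apoa5, Ccng2, Ddit3, Ghr, Pdk1, Pdk4, Pfn2, Tk1 and Uhrf1; quantile normalization for Cyp4a3 and Nr1i3; the actin ratio as a covariate for Apoa5, Ccng2, Cyp2c12, Defb1, Hrg, Slc25a15 and Srxn1; and the mean over the probesets of a gene for Acaca, Acot2, Acsl1, Bbox1, Fgb, Ghr, Hadha, Mbl2, Mdm2, Slc25a15, Slco1a4, Srxn1 and Tk1.

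Single cultures stood far from the other 4 of their group in 30 of 418 groups of 5 tested, or 7.18%, where chance alone marks about 1 in 20. Values are log2(signal + 16). Culture 2 of the 10 mM group, described above, made up 22 of these. It was high, nearer to water, in Abcc2 (13.3 against 12.3 to 12.5), Abcc3 (11.2 against 9.75 to 10.1), Acly (13.9 against 13 to 13.2), Acta1 (10.4 against 8.97 to 9.23), Akr1c1 (11.2 against 9.9 to 10.3), Apoa5 (12.7 against 11.8 to 12) and C9 (12.3 against 11.5 to 11.6). The same held for Cryab (12.7 against 11.6 to 11.8), Glyat (10.4 against 9.61 to 9.77), Gpx2 (12.1 against 11.3 to 11.5), Hao2 (11.9 against 10.5 to 10.9), Hmox1 (13.5 against 12.6 to 12.8), Slc2a2 (14.7 against 14 to 14.2) and Slc37a4 (13.2 against 12.4 to 12.6). It was low, again nearer to water, in Abhd3 (11.3 against 11.9 to 12), Acot7 (12.5 against 12.7 to 12.8), Bhlhe41 (8.82 against 9.35 to 9.47), Cd24 (11.6 against 12.1 to 12.2), Crot (14.1 against 14.4 to 14.5), Pfn2 (12.5 against 12.8 to 12.9) and Rb1 (9.96 against 10.5 to 10.6). The same held for Uchl1 (11.1 against 11.5 to 11.5). The others were Acly in water culture 3 (15 against 15.2 to 15.2), Crot in water culture 1 (13 against 13.1 to 13.1), Cyp2c11 in water culture 3 (14.7 against 14.9 to 14.9), Fasn in water culture 1 (13.3 against 13.5 to 13.5), Hdac10 in the 10 mM culture 1 (7.67 against 8.27 to 8.33), Hsd17b7 in water culture 3 (12.4 against 12.3 to 12.3), Pfkm in water culture 2 (9.31 against 9.64 to 9.72) and Sult1c3 in water culture 3 (9.73 against 9.03 to 9.15).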

How the results depend on the processing

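The named changes and the 3 counts were recomputed under each alternative. Of the genes named in the text with a value, 13 changed direction or call under some setting other than a minimum fold change. That number covers only the genes kept: Hdac2, Hdac7, Asns, Syn1 and Snap25, and the time differences of Prokr1, Dvl3, Ptov1, Bgn, Loricrin, Cdca8 and Slc5a3, were taken out of the text after leaving out single arrays was seen to end or weaken their calls. Centring on ribosomal protein genes gave 1619 lower against 4137 higher genes at 48 h (71.9% higher against 55.4%), and 847 higher genes of 1099 called for the difference between the times (77.1% higher against 51.6%). The rest of these were lower, a far smaller count than without that centring. A log2 change of at least 1 left 704 higher and 540 lower genes against water, 98 higher among 170.0 called between the times and 870 and 713 between the doses. Cps1, Ldha, Pygl and Vnn1 were not called with the ribosomal centring, nor Cdh1, Scd2 and Sox4 with the mean over the probesets of a gene. The GAPDH ratio differed by 0.0193 and missed the threshold that the actin ratio passed. Taking the mean over the probesets of a gene reversed Fgb (-0.17), Hnf4a (-0.33), Hsd17b7 (-0.27) and Plin2 (-0.054). Alb, which was not called, stood at 0.063 after quantile normalization and 0.13 with the ribosomal centring, and between -0.065 and 0.0063 when single cultures were left out; the cause was not tested.

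Leaving out each culture in turn gave 2975 to 3162 higher and 2423 to 2503 lower genes against water. The difference between the times gave 684 to 841 higher of 1299 to 1575 called, and that between the doses 3288 to 3461 and 2633 to 2831. The actin ratio differed by 0.155 to 0.208 (highest exact permutation p = 0.0318). With the running number of the titles as a replicate block, 3214 genes were higher and 2588 lower. Between the times there were 781 and 719, and between the doses 3493 and 2767. No call of a gene named with a value changed. What the cultures of a block share beyond their numbers is not stated. Leaving out the 3 arrays of the series with an actin ratio above 2, chosen after seeing the data, gave 3387 and 2741. A signal near background or near the top of the scale limits what could be measured.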
